A study of Mus musculus with 10 samples.

Results

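The 10 genes described here encode ligands of the B7 family and receptors of the CD28 family, the costimulatory and inhibitory pairs known as immune checkpoints. They were taken by symbol from the deposited table of expected counts, in which all 10 were found among 38215 listed genes. The ligand genes were Cd80, Cd86, Icosl, Cd274, Pdcd1lg2 and Cd276, and the receptor genes were Cd28, Ctla4, Icos and Pdcd1. RNA was sequenced from GFP+ splenocytes of mice with secondary transplant acute myeloid leukaemia (AML), 5 of them immunocompetent C57BL/6J recipients (libraries 1, 3, 4, 5 and 6) and 5 of them immunodeficient Rag2-/-γc-/- recipients (libraries 7 to 11), which lack T, B and NK cells. In both groups the leukaemia carried AML1-ETO and Nras G12D, delivered by the retrovirus MSCV-IRES-GFP into lineage-depleted bone marrow, and had first grown in Rag2-/-γc-/- mice, so the labels separate the groups by secondary recipient alone. The study asked how immunoediting, the shaping of a tumour by the immune system of its host, affected the transcriptome. Ages, sexes and the number of primary leukaemias behind these recipients are absent from the labels. The p-values below rest on the spread from mouse to mouse. They treat the recipients as independent, and whether some share a primary leukaemia is not known.

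T cells receive a signal through the antigen receptor and a second one through CD28, which binds CD80 and CD86 on antigen-presenting cells. CTLA-4 binds the same ligands more tightly and restrains the T cell, ICOS is a later costimulatory receptor with ICOS ligand as its partner, and PD-1 is an inhibitory receptor bound by PD-L1 (the product of Cd274) and PD-L2 (Pdcd1lg2). CD276, also called B7-H3, is a more distant ligand without an agreed receptor. Dendritic cells, macrophages and many leukaemias make B7 ligands, whereas the receptors are known mainly from T cells.

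The libraries held 32703932 to 44097690 expected counts in C57BL/6J recipients and 28157745 to 62461126 in Rag2-/-γc-/- recipients. Values below are CPM, expected counts scaled to a common library size by TMM, unless given as reads. Libraries were not uniform. Without Rag2-/-γc-/- libraries 10 and 11, 2786 genes were called higher and 2518 lower in C57BL/6J recipients, and without libraries 7, 8 and 9 the counts were 148 and 127, against 464 and 624 with all 10. Summed B cell markers (7 genes) reached 139 CPM in C57BL/6J library 1, against 1.72 to 19.97 CPM in the other C57BL/6J libraries and 0.686 to 1.34 CPM in the Rag2-/-γc-/- libraries. Summed dendritic cell markers (8 genes) were at 2700 to 3461 CPM in C57BL/6J and 2116 to 2754 CPM in Rag2-/-γc-/- recipients. Wdfy4 was the largest part of this sum in every library (1964.6 to 2192.2 CPM and 1640.5 to 1958.7 CPM). Cd209a and Siglech stayed at or below 0.658 CPM. Of the 6 tested, Flt3 was the 1 called, higher in C57BL/6J recipients (10.8 to 50.2 CPM against 3.20 to 6.76 CPM, edgeR adjusted p = 0.0109). Summed neutrophil markers (7 genes) stayed at or below 21.6 CPM.

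The most abundant members in both groups were ligand genes. Levels of different genes were compared per kilobase of merged exon. In C57BL/6J recipients Cd86 was at 50.3 ± 8.81 CPM per kb (SD, n = 5), Icosl at 21.9 ± 6.00, Cd80 at 5.12 ± 1.28 and Cd274 at 1.78 ± 0.498. Each of these 4 genes lay above the next with no overlap between libraries. Ctla4 (1.01 ± 0.326 CPM per kb) overlapped with Cd274, and Icos (0.588 ± 0.438), Pdcd1 (0.477 ± 0.360) and Pdcd1lg2 (0.356 ± 0.0588) each overlapped with the gene before them. Cd28 (0.102 ± 0.108) lay below Pdcd1lg2 without overlap, and overlapped with Cd276 (0.0608 ± 0.0698). In Rag2-/-γc-/- recipients Cd86 (39.4 ± 2.67 CPM per kb) and Icosl (37.7 ± 13.9) overlapped, as did Cd80 (5.82 ± 1.21) and Cd274 (3.54 ± 1.59). Below a gap came Pdcd1lg2 (0.204 ± 0.0488), Cd276 (0.129 ± 0.0505) and Ctla4 (0.109 ± 0.0633), which overlapped with one another. Icos and Pdcd1 did not exceed 0.0106 CPM per kb in any Rag2-/-γc-/- library, and Cd28 had no reads there.

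**Figure D1:**
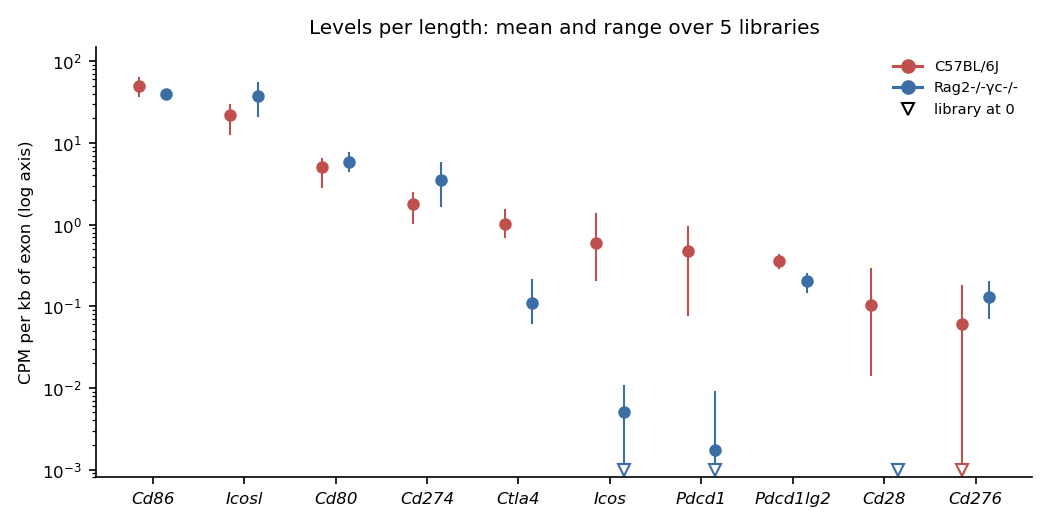
Level of each gene in CPM per kb of merged exon (vertical log axis), with points for the mean and lines for the range over 5 libraries, C57BL/6J to the left of Rag2-/-γc-/-; open triangles mark groups with a library at 0. Cd86 and Icosl are the most abundant members in both groups, and the 4 receptor genes stand lower in Rag2-/-γc-/- recipients.

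The members that passed the test were receptor genes. Ctla4 and Icos rose in cells from C57BL/6J recipients, and Cd28 and Pdcd1, which had too few reads for the main test, were read almost only there. At an adjusted p under 0.05, 7.79% of all 13966 tested genes were called. Of the 8 members with enough counts to be tested, 2 were called higher in C57BL/6J recipients, where 3.32% of all tested genes were. None was called lower in edgeR (4.47% of all tested genes were). At an unadjusted p under 0.05 in edgeR the members numbered 4 higher and 2 lower, beside 11.5% and 14.1% of all tested genes. DESeq2 called 2 higher and 2 lower, where it called 5.75% and 8.27% of all tested genes. Limma-voom with sample quality weights called 4 higher and 3 lower, where it called 23.7% and 23% of all tested genes. Ctla4 and Icos passed the count filter through their C57BL/6J libraries, so these counts describe the members and do not set them apart from other genes.

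Ctla4 (chromosome 1, 60887000 to 60915832, GRCm38) was at 2.57, 1.97, 1.62, 3.57 and 2.01 CPM in C57BL/6J libraries 1, 3, 4, 5 and 6, against 0.492, 0.166, 0.145, 0.163 and 0.304 CPM in Rag2-/-γc-/- libraries 7 to 11. The groups did not overlap and library 5 was the highest. Of the 8 tested members 3 (Ctla4, Icos and Pdcd1lg2) had no overlap, all higher in C57BL/6J recipients. Over all tested genes 8.50% had none, 4.13% with C57BL/6J above and 4.37% with C57BL/6J below. The log2 fold change was 3.13 ± 0.38 (SE; edgeR adjusted p = 0.00062), an 8.77-fold difference. Ctla4 remained past the threshold in each of 18 alternative fits, with log2 fold changes of 2.94 to 3.55. The RefSeq promoter window of Ctla4 (250 bases before to 50 after the annotated start, build GRCm38.p6) is shown because it is the member with a called increase and a matched promoter. It lies at chr1:60908775-60909074 on the plus strand, inside the gene span of the deposited table, which starts upstream of it. Capitals mark GAAANNGAA, a core of sites for interferon regulatory factors, here as its complement TTCNNTTTC, and then GGAAA, the core bound by NFAT, a calcium-regulated factor of T cell activation, here as its complement TTTCC.
Ctla4: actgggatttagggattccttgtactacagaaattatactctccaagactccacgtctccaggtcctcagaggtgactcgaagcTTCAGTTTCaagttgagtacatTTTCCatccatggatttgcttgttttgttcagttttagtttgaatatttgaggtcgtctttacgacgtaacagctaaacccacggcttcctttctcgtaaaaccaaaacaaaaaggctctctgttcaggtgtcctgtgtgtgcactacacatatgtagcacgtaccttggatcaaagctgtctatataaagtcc

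GGAAA was found on either strand in 61.3% of 32851 promoter windows and GAAANNGAA in 8.56%. Rpl18-ps1, named as a pseudogene of a ribosomal protein gene, lies within the Ctla4 span on the same strand, and its reads may be shared with its parent gene. It was at 13.2 to 18.0 CPM in C57BL/6J and 16.5 to 18.0 CPM in Rag2-/-γc-/- recipients (log2 fold change -0.25 ± 0.11, SE; edgeR adjusted p = 0.166).

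Icos (chromosome 1, 60977927 to 61000320) was at 1.99, 1.53, 1.27, 0.718 and 4.58 CPM in C57BL/6J libraries 1, 3, 4, 5 and 6. In the Rag2-/-γc-/- libraries it had 1 read each in 7, 9 and 10 and none in 8 and 11. Library 6 was the highest and library 5 the lowest of the C57BL/6J group, and the groups did not overlap. The ratio of summed reads, 392 against 3 and scaled for library size, was 131 (95% exact binomial interval 44.5 to 638, counting error only; edgeR adjusted p = 0.000376). Icos was past the threshold in all 17 alternatives in which it had enough counts.

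Cd28 (chromosome 1, 60716800 to 60773359), whose product gives the second signal to T cells, had 58, 20, 13, 4 and 18 reads in C57BL/6J libraries 1, 3, 4, 5 and 6 and no read in any Rag2-/-γc-/- library. Against a floor of 3 reads over the Rag2-/-γc-/- group (0.0151 CPM) it was at least 37.8-fold higher in C57BL/6J recipients, and at least 22.03-fold without library 1, which held 58 of the 113 reads. The exact 95% lower limit with all libraries was 30.2-fold. Pdcd1 (chromosome 1, 94038307 to 94052553), the PD-1 gene, had 59, 58, 33, 7 and 15 reads in the same C57BL/6J libraries and 1 read in Rag2-/-γc-/- library 7 alone. The ratio, scaled likewise, was 173 (95% exact binomial interval 30.6 to 6854.5, counting error only). With no count filter, over 23191 genes of which 2.42% were called higher, both were called (edgeR adjusted p = 0.0103 for Cd28 and 0.0008 for Pdcd1). Without Rag2-/-γc-/- libraries 7, 8 and 9, which leaves 5 libraries against 2, neither was (edgeR adjusted p = 0.162 and 0.0953).

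**Figure D2:**
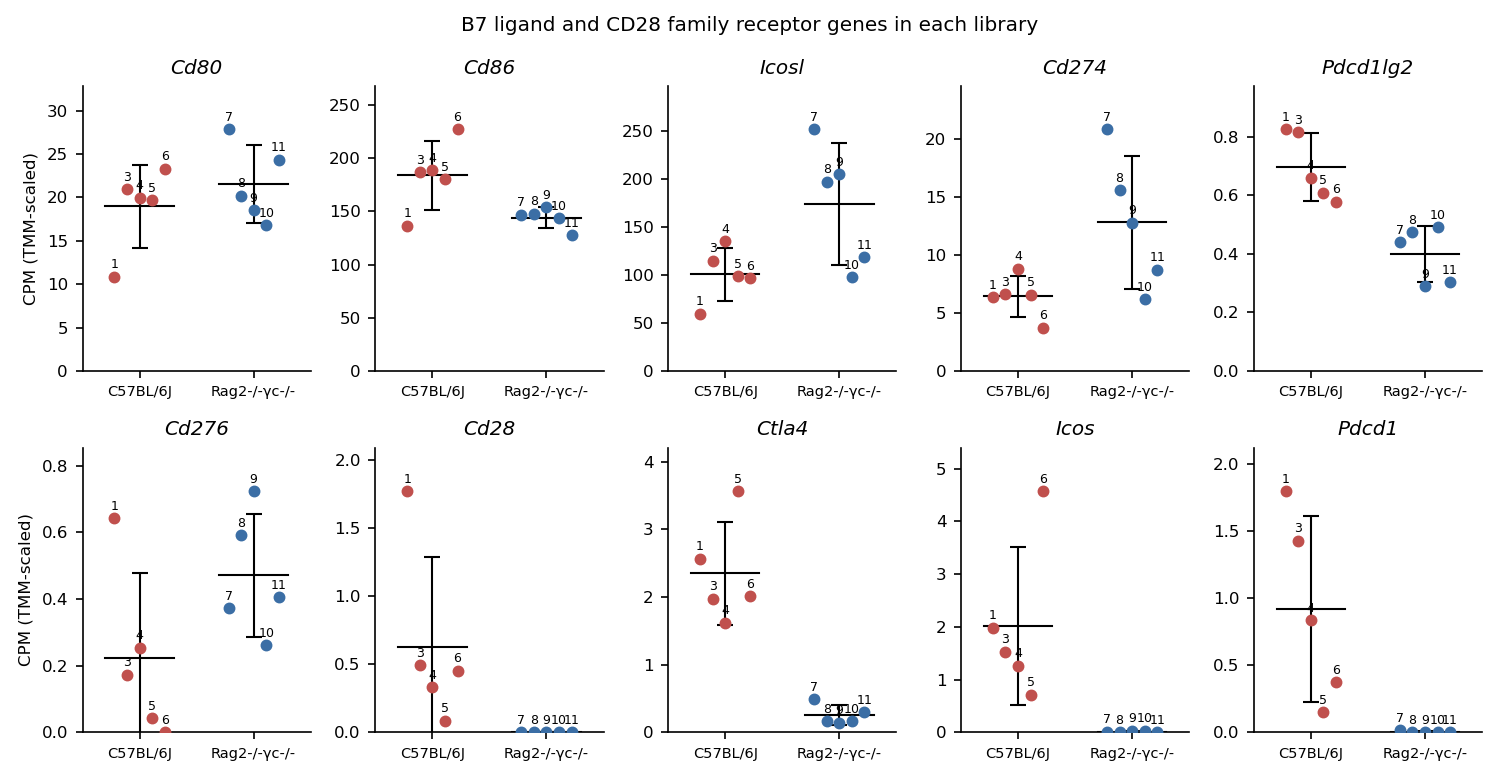
CPM of the 6 ligand and 4 receptor genes in each library (vertical linear axes from 0), C57BL/6J left and Rag2-/-γc-/- right, with library numbers; lines and bars are the mean and SD (n = 5 each), cut off at 0. The receptor genes sit above the Rag2-/-γc-/- libraries in all 5 C57BL/6J libraries, and Icosl and Cd274 are high in Rag2-/-γc-/- libraries 7, 8 and 9.

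Some T cell markers differed between the same groups and others did not. Summed over 17 marker genes they ranged from 69.0 to 134 CPM in C57BL/6J and from 22.3 to 48.1 CPM in Rag2-/-γc-/- recipients, much of it from Cd8a, which cross-presenting dendritic cells also make (48.6 to 107 CPM against 14.9 to 41.2 CPM). Of the 17, Trac, Trbc1, Trbc2, Cd8b1 and Thy1 had no read in any Rag2-/-γc-/- library. The 2 that passed the test as higher in C57BL/6J recipients were Cd8a and Zap70, the latter let through the count filter by its C57BL/6J libraries. The other 7 of 9 tested were not called. Among them Cd4 averaged 1.96 CPM in C57BL/6J and 1.62 CPM in Rag2-/-γc-/- recipients, and Cd5 averaged 1.43 CPM against 2.83 CPM. The 6 genes of the T cell receptor and CD3 chains (Cd3d, Cd3e, Cd3g, Trac, Trbc1 and Trbc2, picked after their values were seen) had 662, 274, 97, 26 and 141 reads in C57BL/6J libraries 1, 3, 4, 5 and 6, against 1, 2, 0, 1 and 6 reads in Rag2-/-γc-/- libraries 7 to 11. The sort was for GFP, which the vector carries and recipient cells do not. The share of recipient cells left after the sort, and their part in these reads, was not tested. In such bulk samples fewer cells of a type and less RNA per cell cannot be told apart.

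The 4 receptor genes stood differently beside these T cell genes. Cd28 was highest in library 1 and lowest in library 5, as the T cell receptor and CD3 genes were, at 0.073 to 0.154 reads per read of those genes in the C57BL/6J libraries. Pdcd1 was also highest in library 1 and lowest in library 5, at 0.0891 to 0.340 per read. Icos ran from 0.0982 per read in library 1 to 1.29 in library 6. Ctla4 ran from 0.127 per read in library 1 to 6.31 in library 5, the library with the highest Ctla4 and the fewest T cell receptor and CD3 reads. In Rag2-/-γc-/- recipients 57 reads of Ctla4 stood beside 10 reads of the 6 genes together. Summed markers of regulatory T cells (6 genes), which are rich in CTLA-4, were lowest in library 5 and highest in library 1 of the C57BL/6J group, at 7.07 to 15.9 CPM against 8.07 to 10.8 CPM in Rag2-/-γc-/- recipients. The gene with the highest mean on that list, Tnfrsf18, was level (5.43 CPM against 5.37 CPM). Of the 5 tested, Il10 was the 1 called, lower in C57BL/6J recipients (mean 0.288 CPM against 1.07 CPM, edgeR adjusted p = 0.0374). Ikzf2, with too few reads for the test, had 102, 39, 35, 7 and 10 reads in C57BL/6J libraries 1, 3, 4, 5 and 6. In Rag2-/-γc-/- recipients it had 3 reads, all in library 8. Foxp3 was at 1.07 to 3.45 CPM in C57BL/6J recipients, highest in library 1, and at 0.62 to 1.14 CPM in Rag2-/-γc-/- recipients (edgeR adjusted p = 0.111). The part of T cell RNA in the difference of any receptor gene was not tested.

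**Figure D3:**
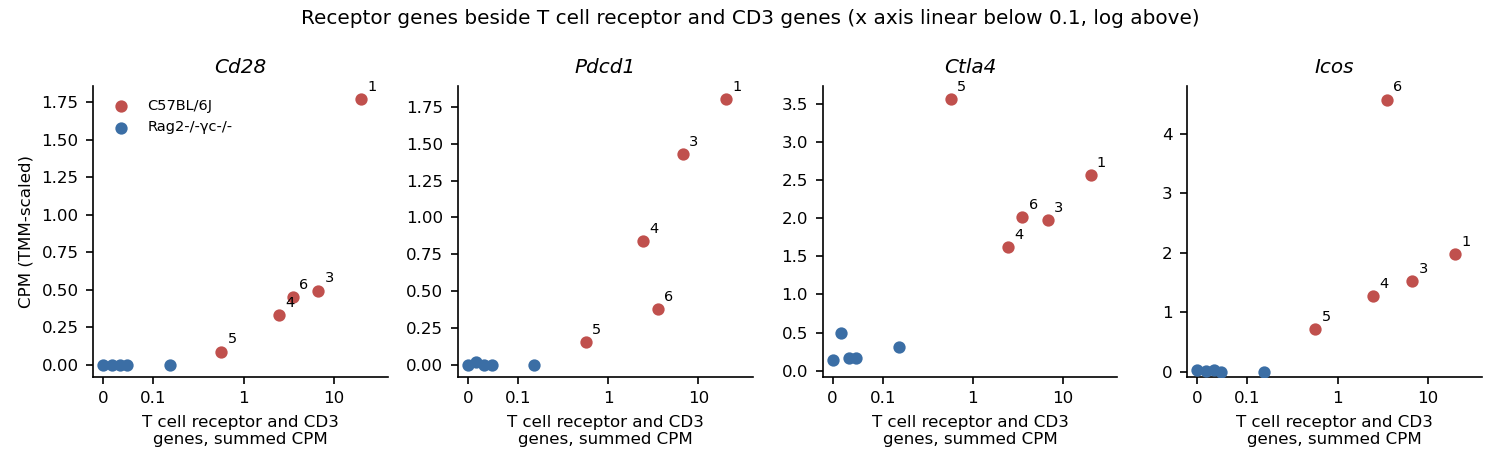
CPM of Cd28, Pdcd1, Ctla4 and Icos (vertical axes) against the summed CPM of 6 T cell receptor and CD3 genes (horizontal axis, linear below 0.1 and logarithmic above), 1 point per library, with C57BL/6J libraries numbered. Library 5 has the highest Ctla4 (3.57 CPM) at the lowest T cell receptor and CD3 sum of its group (0.566 CPM), and library 6 the highest Icos (4.58 CPM).

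The genes of the CD28 and CTLA-4 ligands were not called in edgeR with all libraries, and limma-voom with quality weights called Cd86 higher in C57BL/6J recipients (adjusted p = 0.00392). Cd86 (chromosome 16, 36603869 to 36666081) had 137, 187, 189, 181 and 227 CPM in C57BL/6J libraries 1, 3, 4, 5 and 6, against 147, 148, 154, 144 and 128 CPM in Rag2-/-γc-/- libraries 7 to 11. Of the C57BL/6J libraries 4 lay above all of the other group and library 1 lay within it. The log2 fold change was 0.35 ± 0.12 (SE; edgeR adjusted p = 0.0982), and without library 1 it was 0.45 (edgeR adjusted p = 0.0141). Cd80 (chromosome 16, 38458933 to 38486933) had 10.8, 21.0, 19.9, 19.7 and 23.3 CPM in C57BL/6J libraries 1, 3, 4, 5 and 6, against 27.8, 20.2, 18.5, 16.8 and 24.4 CPM in Rag2-/-γc-/- libraries 7 to 11. The groups overlapped, and the log2 fold change was -0.19 ± 0.20 (SE; edgeR adjusted p = 0.569). Within each library Cd86 exceeded Cd80 by 8.92 to 12.6 times in C57BL/6J and by 5.25 to 8.55 times in Rag2-/-γc-/- recipients, as ratios of CPM without correction for length. These ranges did not meet, a difference that was not tested. Library 1, with the most B cell and T cell marker RNA, had the lowest Cd80, Cd86 and Icosl of the C57BL/6J group. Of the cell types that make B7 ligands, summed dendritic cell markers are given above and summed macrophage markers (8 genes) were at 211.9 to 363 CPM in C57BL/6J and 295.6 to 497.4 CPM in Rag2-/-γc-/- recipients; their part in the ligand values was not tested. Cd68 was the largest part of the macrophage sum in every library, with means of 182 CPM in C57BL/6J and 175.5 CPM in Rag2-/-γc-/- recipients.

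Icosl and Cd274 had the same arrangement across the libraries, with high values in 3 of the 5 Rag2-/-γc-/- recipients. Icosl (chromosome 10, 78069360 to 78079525) was at 59.7, 115, 135, 98.8 and 96.4 CPM in C57BL/6J libraries 1, 3, 4, 5 and 6, against 252, 198, 205, 98.1 and 119 CPM in Rag2-/-γc-/- libraries 7 to 11. Libraries 7, 8 and 9 lay above all others, and libraries 10 and 11 lay within the range of the C57BL/6J group. Of the macrophage markers, Marco and Vcam1 were also highest in libraries 7, 8 and 9. For each of the others another library reached into or above the range of those libraries. Marco, a scavenger receptor gene, was at 0.151 to 2.49 CPM in C57BL/6J recipients, against 6.02, 8.35, 5.36, 2.52 and 1.92 CPM in Rag2-/-γc-/- libraries 7 to 11 (edgeR adjusted p = 0.0453, the 1 of 8 macrophage markers called). Vcam1, an adhesion molecule gene, was at 4.20 to 15.9 CPM against 16.5, 48.1, 27.0, 6.70 and 14.0 CPM. C1qa, a macrophage marker without that arrangement, was at 5.81 to 57.2 CPM against 43.5, 78.2, 48.1, 23.6 and 35.4 CPM. For Icosl the log2 fold change was -0.79 ± 0.27 (SE; edgeR adjusted p = 0.102). It was -1.11 without libraries 10 and 11 (edgeR adjusted p = 0.0036) and -0.10 without libraries 7, 8 and 9 (edgeR adjusted p = 0.934). Here and for Cd274 below, this split of the libraries was chosen with the data known. Fits without libraries 10 and 11, or without 7, 8 and 9, describe the arrangement and do not test it.

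Cd274 (chromosome 19, 29367455 to 29388095) was at 6.35, 6.61, 8.83, 6.59 and 3.75 CPM in C57BL/6J libraries 1, 3, 4, 5 and 6, against 20.9, 15.6, 12.8, 6.17 and 8.75 CPM in Rag2-/-γc-/- libraries 7 to 11. Again libraries 7, 8 and 9 lay above all others and 10 and 11 within the C57BL/6J range. The log2 fold change was -1.001 ± 0.314 (SE; edgeR adjusted p = 0.0772), and without libraries 10 and 11 it was -1.35 (edgeR adjusted p = 0.00243). Without library 10 alone both genes passed the threshold, with edgeR adjusted p of 0.0183 for Cd274 and 0.0276 for Icosl, and DESeq2 called both with all libraries (adjusted p = 0.0181 and 0.0348), as did limma-voom with quality weights (0.00347 and 0.00243). Without libraries 7, 8 and 9 the log2 fold change of Cd274 was -0.21 (edgeR adjusted p = 0.867).

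The promoter windows of this pair are shown because the genes lie on different chromosomes and had the same arrangement across libraries. Other genes had that arrangement too, and their share over all tested genes was not counted. Pik3r1 was at 155 to 170 CPM in libraries 7, 8 and 9, 75.9 and 87.4 CPM in 10 and 11, and 64.5 to 103.9 CPM in C57BL/6J recipients. For Def6 these values were 128.5 to 162.3, 71.8 and 95.8, and 66.2 to 101.7 CPM. The Cd274 window is chr19:29367188-29367487 and the Icosl window chr10:78069118-78069417, both on the plus strand of GRCm38.p6. Capitals mark GAAANNGAA (in Cd274, as TTCNNTTTC), the GC box GGGCGG and the GGAAA core.
Cd274: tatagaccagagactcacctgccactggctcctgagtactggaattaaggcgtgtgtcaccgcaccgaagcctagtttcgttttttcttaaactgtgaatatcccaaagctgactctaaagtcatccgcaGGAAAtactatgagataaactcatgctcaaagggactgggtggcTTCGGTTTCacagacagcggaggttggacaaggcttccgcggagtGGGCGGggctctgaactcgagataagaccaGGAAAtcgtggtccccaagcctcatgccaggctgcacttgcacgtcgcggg
Icosl: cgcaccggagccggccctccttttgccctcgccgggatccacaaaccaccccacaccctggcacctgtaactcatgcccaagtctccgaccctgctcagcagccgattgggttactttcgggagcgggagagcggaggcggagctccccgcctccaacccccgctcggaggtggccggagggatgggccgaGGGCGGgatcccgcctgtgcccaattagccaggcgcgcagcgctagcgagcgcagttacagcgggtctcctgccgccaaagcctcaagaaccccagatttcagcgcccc

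Each of these windows held 1 GGGCGG, which was found on either strand in 35.7% of all windows, and Cd274 also held GGAAA at 2 places. Cd274 held 1 GAAANNGAA and Icosl held none. Neither held TTCNNNGAA of STAT factors (8.30% of windows, a palindrome) or TGANTCA of AP-1 (7.81%, a palindrome). Promoter windows were matched for 7 of the 10 members. GAAANNGAA was in those of Ctla4 and Cd274 alone, and with 1 more A at its 3' end, the form searched first, it was in none of the 7 (3.44% of all windows). A GGAAA can overlap with GAAANNGAA. These searches describe the letters of the windows alone.

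**Figure D4:**
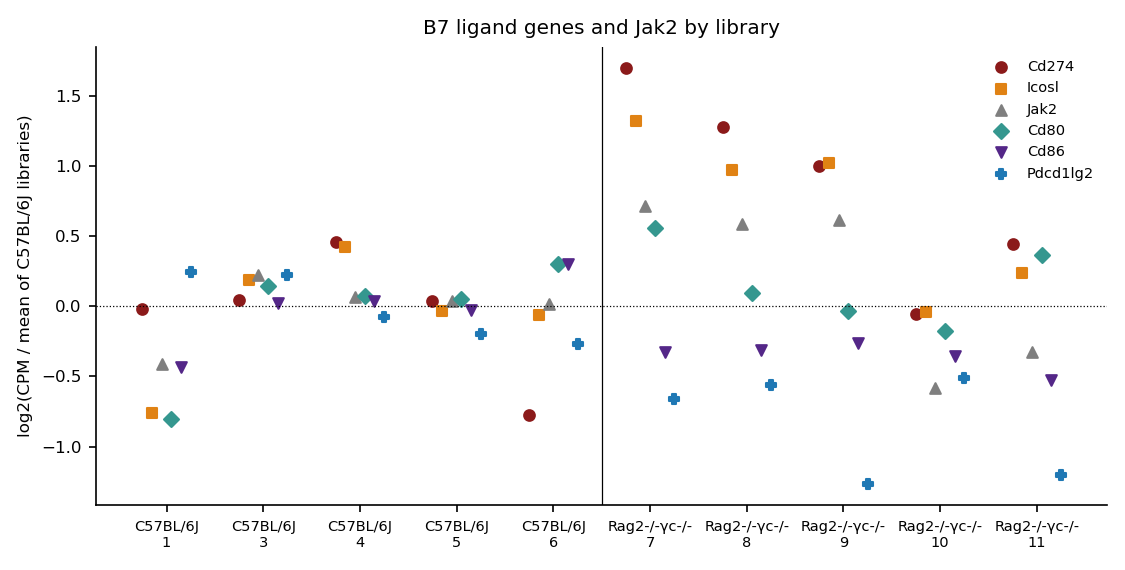
Log2 ratio of CPM to the mean of the C57BL/6J libraries (vertical axis) for 5 ligand genes and Jak2 in each library (horizontal axis), with C57BL/6J libraries left of the line. Cd274, Icosl and Jak2 are above the C57BL/6J libraries in Rag2-/-γc-/- libraries 7, 8 and 9 and not in 10 and 11, whereas Pdcd1lg2 is low in all 5.

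Pdcd1lg2 (chromosome 19, 29410919 to 29471157), the second PD-1 ligand gene and the neighbour of Cd274, leaned the other way. It was at 0.825, 0.814, 0.660, 0.609 and 0.579 CPM in C57BL/6J libraries 1, 3, 4, 5 and 6, against 0.441, 0.473, 0.290, 0.490 and 0.304 CPM in Rag2-/-γc-/- libraries 7 to 11. The groups did not overlap, and the log2 fold change was 0.79 ± 0.25 (SE; edgeR adjusted p = 0.0773, not called; called in limma-voom with quality weights, adjusted p = 0.0119). These values rested on 137 reads in the C57BL/6J group and 81 in the Rag2-/-γc-/- group. Cd276 (chromosome 9, 58524300 to 58555132) was near the detection limit, with 21, 7, 10, 2 and 0 reads in C57BL/6J libraries 1, 3, 4, 5 and 6, against 22, 25, 20, 8 and 16 reads in Rag2-/-γc-/- libraries 7 to 11. Its log2 fold change was -1.12 ± 0.72 (SE; edgeR adjusted p = 0.333), and -1.98 without library 1 (edgeR adjusted p = 0.0984). Limma-voom with quality weights gave -2.43 and called it lower (adjusted p = 0.00874).

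**Figure D5:**
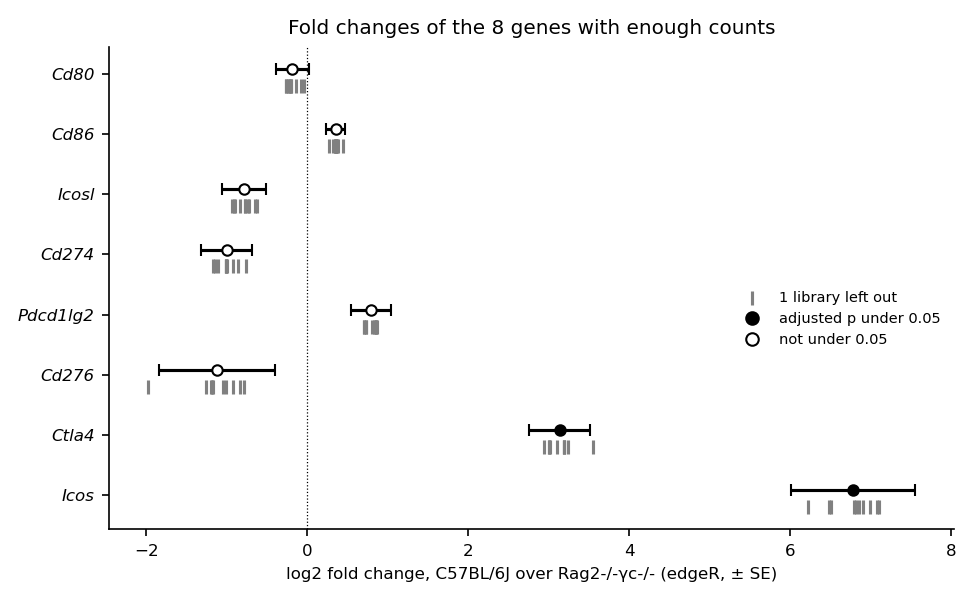
Log2 fold changes of C57BL/6J over Rag2-/-γc-/- recipients (horizontal axis; circles with SE, edgeR, 8 genes with enough counts), with grey ticks for the values when 1 library was left out. The filled circles of Ctla4 and Icos lie to the right of all ligand genes, and the value of Icos rests on 3 reads in the Rag2-/-γc-/- group.

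The nearest tested genes around the members were examined for both clusters, and some lay far away because untested genes were passed over. Around Cd28, Ctla4 and Icos, the 3 nearest tested genes before the cluster (Cyp20a1, Abi2 and Eif4a-ps4) had log2 fold changes of 0.12, -0.20 and 0.29. The 3 after it (Nrp2, Ino80d and Gm11602) had -1.20, -0.19 and -0.11, and none of these genes was past the threshold. Those before lay 329, 236 and 11.1 kb from the cluster, and those after 1703, 1958 and 2114 kb. Around Cd274 and Pdcd1lg2 the 6 nearest genes lay between -0.30 and 0.06, also without a call. Jak2, a kinase gene of interferon gamma signalling 54.4 kb before Cd274, had 124 to 192 CPM in C57BL/6J recipients, 247 to 269 CPM in Rag2-/-γc-/- libraries 7, 8 and 9 and 110 and 131 CPM in libraries 10 and 11. The gene between Jak2 and Cd274 (5033414D02Rik, also named Plgrkt) was at 20.6 to 22.9 CPM in C57BL/6J and 19.5 to 24.2 CPM in Rag2-/-γc-/- recipients. Of those Rag2-/-γc-/- values 22.9 to 24.2 CPM were in libraries 7, 8 and 9 and 20.1 and 19.5 CPM in 10 and 11.

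Genes that induce the ligands were called in both directions. Of 14 such genes 3 rose and 2 fell in C57BL/6J recipients in edgeR, where 3.32% and 4.47% of all tested genes did. DESeq2 called 3 and 2 (5.75% and 8.27% of all tested genes), and limma-voom with quality weights 4 and 4 (23.7% and 23%). The median log2 fold change was -0.11 (0.00 over all tested genes). Irf1, which activates Cd274 after interferon gamma, had 81.6 to 125 CPM in C57BL/6J and 53.5 to 79.8 CPM in Rag2-/-γc-/- recipients (log2 fold change 0.68 ± 0.14, SE; edgeR adjusted p = 0.0146). The hypoxia factor gene Hif1a rose by 0.37 ± 0.08 on the log2 scale. The receptor-bound kinase gene Jak1 fell by 0.48 and the NF-kB subunit gene Nfkb1 by 0.34. Without Rag2-/-γc-/- libraries 7, 8 and 9 none of these 4 kept its call (edgeR adjusted p of 0.179 to 0.547). The log2 fold changes in that fit were 0.57 for Irf1, 0.30 for Hif1a, -0.35 for Nfkb1 and -0.23 for Jak1. Jak1 also lost it without any 1 of C57BL/6J libraries 3, 4, 5 and 6 or Rag2-/-γc-/- libraries 7, 8 and 9 (edgeR adjusted p of 0.0515 to 0.101), Nfkb1 without 3, 4, 6, 8 or 9 (0.0545 to 0.0685) and Hif1a without 6 (0.0511). Cd274 had its lower mean in the group in which Irf1 rose, and was not called (edgeR adjusted p = 0.0772). The relation of Irf1 to Cd274 was not tested.

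Of 22 tested signalling genes below the receptors (23 listed) 3 rose and 1 fell in edgeR, where 3.32% and 4.47% of all tested genes did. Their median log2 fold change was -0.07. DESeq2 called 4 higher and 3 lower (5.75% and 8.27% of all tested genes). Limma-voom with quality weights called 4 higher and 8 lower (23.7% and 23%). Zap70, a kinase of T cell receptor signalling that is also on the T cell list, was at 0.326 to 3.604 CPM in C57BL/6J and at most 0.0339 CPM in Rag2-/-γc-/- recipients. Grap2, an adaptor of T cells, was at 0.674 to 7.09 CPM against 0.0170 to 0.131 CPM. Zap70 and Grap2 passed the count filter through their C57BL/6J libraries, as Ctla4 and Icos did, so their calls do not set the list apart. Prkcq, protein kinase C theta of the CD28 pathway, was at 1.03 to 3.57 CPM against 0.196 to 0.434 CPM (log2 fold change 2.69 ± 0.38, SE; edgeR adjusted p = 0.0016). Zap70 and Grap2 were highest in library 1 and lowest in library 5, in the order of the T cell receptor and CD3 genes at both ends, whereas Prkcq was second highest in library 5. Bcl10, an adaptor on the way to NF-kB, fell by 0.37, a call lost without any 1 of libraries 3 to 9 (edgeR adjusted p of 0.0658 to 0.111). Without Rag2-/-γc-/- libraries 7, 8 and 9 none of these 4 was called in the fit of 5 libraries against 2 (edgeR adjusted p of 0.0635 to 0.344). The log2 fold changes there were 2.72 for Prkcq, 4.31 for Grap2 (4.81 with all libraries) and -0.26 for Bcl10.

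Among 11 genes that handle the ligand and receptor proteins 2 rose and none was called lower in edgeR (3.32% and 4.47% of all tested genes). At an unadjusted p under 0.05 in edgeR 2 were higher and 1 lower (11.5% and 14.1% of all tested genes). DESeq2 called 2 higher and none lower (5.75% and 8.27% of all tested genes). Limma-voom with quality weights called 3 higher and 4 lower (23.7% and 23%). Spop, an adaptor of a ubiquitin ligase that acts on PD-L1, rose, at 281 to 348 CPM in C57BL/6J and 168 to 227 CPM in Rag2-/-γc-/- recipients (log2 fold change 0.69 ± 0.10, SE; edgeR adjusted p = 0.00266). The recycling GTPase gene Rab11a rose too, at 100.3 to 136 CPM against 85.8 to 95.5 CPM (0.41 ± 0.09). The call of Rab11a was lost without library 6, 7 or 9 (edgeR adjusted p of 0.0558 to 0.064), and both were lost without libraries 7, 8 and 9 (0.0717 for Spop and 0.222 for Rab11a), with log2 fold changes of 0.49 for Spop and 0.42 for Rab11a. Cmtm6, whose product keeps PD-L1 at the cell surface, was at 215 to 311 CPM in C57BL/6J and 252 to 369 CPM in Rag2-/-γc-/- recipients, and March1, a ubiquitin ligase gene for CD86, at 95.1 to 143 CPM against 112 to 198 CPM. Neither was past the threshold in edgeR or DESeq2, and limma-voom with quality weights called March1 lower. Of 8 further co-signalling genes 4 had enough counts, and none was called in either direction in edgeR or DESeq2. At an unadjusted p under 0.05 in edgeR 1 was higher (11.5% of all tested genes). Limma-voom with quality weights called 1 higher, Tnfrsf14 (23.7% of all tested genes). Btla, an inhibitory receptor gene of lymphocytes and dendritic cells, was at 311 to 489 CPM in C57BL/6J and 315 to 496 CPM in Rag2-/-γc-/- recipients. Its partner Tnfrsf14 had the smallest p of that list (log2 fold change 0.45 ± 0.19, SE; edgeR adjusted p = 0.165). Vtcn1, a B7 family gene, had no reads in any library.

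Genes with the pattern most like Cd274, Ctla4 and Icos were sought by the root mean square difference of centred log2 CPM over the 10 libraries, among tested genes with a mean of at least 1 CPM. For Cd274 these were Klrb1b (0.183), Fcgr3 (0.185), Dennd3 (0.191) and Pnp2 (0.209). Klrb1b, a lectin-like receptor gene, was at 72.8 to 136 CPM in C57BL/6J and 117 to 297 CPM in Rag2-/-γc-/- recipients. For Ctla4 the distances were larger, 0.436 for AC168977.1, 0.442 for Plekha7, 0.450 for 2010001M09Rik and 0.455 for the transcription factor gene Pax3. Pax3 was at 10.6 to 16.7 CPM against 2.16 to 3.58 CPM. For Icos they were Macc1 (0.399), Macrod2 (0.476), the stem cell factor receptor gene Kit (0.495) and Gucy2g (0.507). Kit was at 3.21 to 7.52 CPM against 0.163 to 0.434 CPM. The 6 T cell receptor and CD3 genes had too few counts to enter this search.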

How the data were processed

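Poly(A)-selected RNA was made into NEBNext Ultra libraries and sequenced as single reads, per the labels' protocols. The authors deposited 1 table of expected counts per Ensembl gene for all 10 libraries. The submitters' processing notes list STAR 2.5.2a, cutadapt 1.11, edgeR and RSEM 1.2.30 beside build GRCm38. Their roles, the annotation release and the use of strand were not given in the sources used here. The deposited expected counts share out reads that fit several genes, and 15.3 to 17.3% of a library's values were not whole (any remainder above 0), so values were rounded before testing.

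Libraries were grouped by their titles. The main test was edgeR 4.0.16 (R 4.3.3), quasi-likelihood, with TMM, filterByExpr (minimum count 10, minimum total 15), group alone, and Benjamini-Hochberg adjustment over 13966 genes at 0.05. Log2 fold changes are C57BL/6J over Rag2-/-γc-/-, and SE is the unshrunken coefficient over the square root of F. DESeq2 1.42.0, limma 3.58.1 (voom with quality weights), RLE and upper-quartile scaling, no filter, a filter of 1 CPM in 5 libraries and left-out libraries were alternatives. The edgeR step was tested on simulated data. Exon lengths came from GENCODE M21 and promoter windows from RefSeq, both on GRCm38. Distances in pattern used log2 of CPM plus 0.25.

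The members, gene lists and alternatives were chosen with earlier results of these data known. Named genes were the 10 members; of each other list those past the threshold (at most 6) or the 1 with the smallest p; and the 4 genes nearest in pattern to Cd274 and to each called member. Cmtm6, March1, Btla, Vtcn1, Jak2, Foxp3, Il10, Cd4, Cd5, Cd68, Marco, Vcam1 and Cd8a were named after their values were seen. So were C1qa, Ikzf2, Tnfrsf18, Pik3r1, Def6, Wdfy4, Cd209a, Siglech and Flt3. Of the genes this rule names, 1 is not reported here.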

Additional observations from a re-analysis of the deposited data

Results flagged for a closer look

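Among 44 pairs of a gene and a group of 5 libraries, 4 held a library far from the others. Far means that its gap to the nearest was over 0.71 of the group's range, which chance gives in about 1 in 20 groups. Cd28 in the Rag2-/-γc-/- group, at 0 in every library, has no range and could not be flagged. Cd28 was at 1.77 CPM in C57BL/6J library 1, against 0.0870 to 0.494 CPM in the other 4. Grap2 was at 7.09 CPM in the same library, against 0.674 to 2.04 CPM. Library 1 also had the most T cell receptor and CD3 reads, 662 against 26 to 274, and their part in these values was not tested. Bcl10 was at 71.0 CPM in Rag2-/-γc-/- library 7, against 54.4 to 58.4 CPM in the other 4. Pdcd1 was at 0.0170 CPM in that library, which is 1 read, and at 0 in the other 4. A single library above 0 is always flagged by this rule, so the chance rate does not apply to Pdcd1.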

How the results depend on the processing

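No paired analysis was possible because the title numbers of the groups share no value. Ctla4 and Icos kept direction and call in every alternative in which they were tested. The 2 members called higher became 4 in limma-voom with quality weights (Cd86 and Pdcd1lg2 added), 4 with no filter and 4 without Rag2-/-γc-/- libraries 10 and 11 (Cd28 and Pdcd1 added in both), and 1 with 1 CPM required in 5 libraries, where Icos was no longer tested. The 0 called lower became 2 in DESeq2 (Cd274 and Icosl), 3 in limma-voom (Cd276 added) and 2 without libraries 10 and 11. Leaving out 1 library, the members numbered 2 to 4 higher and 0 to 2 lower; in fits of 4 libraries against 5 the count filter needs fewer libraries, which let Cd28 and Pdcd1 in without C57BL/6J library 5 or any 1 Rag2-/-γc-/- library, and without library 1 the third called was Cd86. The 2 called lower without library 10 were Cd274 and Icosl.

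Over all genes, 464 higher and 624 lower became 803 and 1155 in DESeq2, 3306 and 3217 in limma-voom, 2786 and 2518 without libraries 10 and 11, 148 and 127 without libraries 7, 8 and 9, and 275 to 1076 and 304 to 1323 with 1 library left out. The cause was not tested. RLE and upper-quartile scaling moved the median of all genes by -0.005 and 0.015. Depth limits Cd276, Pdcd1lg2, Cd28 and Pdcd1, where a floor of 3 reads over a group was 0.0151 CPM.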
